A study of Mus musculus with 30 samples.

Results

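The comparison of A-Fos with GFP in the plain culture set rests on 6 of the 30 RNA sequencing libraries of the series. They were taken by their titles: 3 libraries called DN here, which carried the AP-1 dominant negative A-Fos, and 3 GFP libraries, with replicates 1 to 3 in each condition standing for the title letters A to C. All were primary cultures of neuron-enriched dorsal root ganglion (DRG) tissue from mice of genotype C57/Bl6 wt, and in both conditions the transgene was brought in by a PHP.S adeno-associated virus described as specific for sensory neurons. The DN cultures received the A-Fos vector, and the GFP cultures received the control vector. Cultures from separate mice had been divided between the conditions, so each DN library has a GFP library from the same culture. The sources used here do not give the promoter of the vectors, the age of the mice or the days in vitro of these cultures. Of 3 untransduced libraries of the same cultures, only levels are given, with no test.

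AP-1 is a family of dimeric transcription factors in which a Fos, Jun, ATF or Maf protein pairs through a leucine zipper. Dimers of Fos and Jun read the DNA element TGACTCA. A-Fos keeps the zipper of Fos but has an acidic stretch in place of the DNA-binding region, so it pairs with Jun proteins and keeps them off DNA. In sensory neurons Jun and Atf3 are induced when the axon is cut, which also happens when ganglia are dissected for culture, and the injury state is known for a gain of growth and neuropeptide genes and a loss of the receptors and channels that set each class of neuron apart. The comparison asks what blocking AP-1 changes beyond transduction itself.

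Among the largest falls, the window from 250 bases before to 50 after the RefSeq gene start (GRCm38.p6) held the AP-1 element, searched as TGACTCA and, for the other strand, TGAGTCA, in 1 of the 13 genes with a window, Nts. It is printed with 3 genes chosen after their values were seen because they fell, stand in the lists of AP-1 targets or injury-induced genes and hold the element. The 250 bases before the start are given 5′ to 3′ on the gene's strand, with the element in capitals.
Nts (neurotensin precursor), chr10:102490419-102490668, minus strand, element beginning 207 bases before the start: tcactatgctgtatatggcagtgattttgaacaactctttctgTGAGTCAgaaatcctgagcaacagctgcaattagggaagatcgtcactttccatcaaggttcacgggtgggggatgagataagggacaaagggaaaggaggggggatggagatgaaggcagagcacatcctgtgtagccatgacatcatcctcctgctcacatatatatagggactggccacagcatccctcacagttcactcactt
Plaur (urokinase receptor), chr7:24462233-24462482, plus strand, element beginning 69 bases before the start: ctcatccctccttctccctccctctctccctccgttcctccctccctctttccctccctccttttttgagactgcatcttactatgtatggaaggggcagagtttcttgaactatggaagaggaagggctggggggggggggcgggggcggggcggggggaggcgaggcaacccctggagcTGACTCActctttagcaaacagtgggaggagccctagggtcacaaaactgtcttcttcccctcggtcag
Sprr1a (small proline-rich protein of injured neurons), chr3:92485882-92486131, minus strand, elements beginning 146 and 116 bases before the start: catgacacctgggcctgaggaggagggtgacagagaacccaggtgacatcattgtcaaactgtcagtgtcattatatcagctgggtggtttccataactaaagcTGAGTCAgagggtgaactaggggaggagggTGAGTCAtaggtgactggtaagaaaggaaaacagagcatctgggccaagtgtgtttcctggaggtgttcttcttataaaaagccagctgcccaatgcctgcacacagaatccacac
Lif (leukaemia inhibitory factor), chr11:4257318-4257567, plus strand, element beginning 228 bases before the start: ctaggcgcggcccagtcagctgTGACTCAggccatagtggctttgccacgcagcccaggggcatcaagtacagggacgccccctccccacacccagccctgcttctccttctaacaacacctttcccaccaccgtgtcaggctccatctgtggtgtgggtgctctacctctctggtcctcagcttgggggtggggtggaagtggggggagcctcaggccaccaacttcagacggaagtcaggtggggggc

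Shares are of genes with a window, such as 1289 of the 1730 called lower. A gene with several windows counted when any of them held the element. The AP-1 element was found for 109 of 1289 genes called lower in DN (8.46%) and for 63 of 1422 called higher (4.43%). It was found for 351 of 8902 genes that were not called (3.94%). Among genes called lower by at least 2-fold it was in 18 of 121 (14.9%), and among those called higher by at least 2-fold in 8 of 269 (2.97%). Over all 27025 genes with a RefSeq window it was in 1607 (5.95%). The related cyclic AMP element TGACGTCA holds neither AP-1 spelling and is its own reverse complement. It was found for 3.41% of genes called lower, 2.74% of those called higher and 3.61% of those not called. Among genes called lower by at least 2-fold it was in 6 of 121 (4.96%), and among those called higher by at least 2-fold in 6 of 269 (2.23%). A match in such a window is a description and not evidence of binding, and base composition was not adjusted for.

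Read counts per library ran between 24.1 and 28.8 M (M, 1e+06 reads) in DN and between 26.4 and 31.1 M in GFP. Enough counts to be tested were found for 17318 of the 48795 genes listed. Principal components 1 and 2 of the 6 libraries took 43.6% and 18.9% of variance, and the biological coefficient of variation was 0.0859. No library was a copy of another: within a condition, pairs of libraries differed by 10.6 to 25.1 times the sampling noise. Mitochondrially encoded genes took 0.79, 0.974 and 1.37% of counts in DN replicates 1 to 3, against 1.1, 1.16 and 1.63% in GFP. Levels are CPM, counts scaled to 1e+06 per library with TMM factors, and are not per length, so they are compared between libraries and not between genes.

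The summed level of cell type markers was read before the results, since neurons share the dish with other cells. All 26 pan-neuronal genes were detected, with a sum of 7156, 5775 and 6097 CPM in DN against 6181, 5991 and 5948 CPM in GFP. The DN and GFP ranges overlap, and the DN mean is 1.05 times that of GFP. Fibroblast markers summed to between 10400 and 13000 CPM in DN and between 12700 and 15000 CPM in GFP, a ratio of means of 0.845. Satellite glia markers summed to between 1940 and 2210 CPM in DN and between 2320 and 2450 CPM in GFP (0.86), Schwann cell markers to between 4600 and 5210 CPM in DN and between 5060 and 5490 CPM in GFP (0.941), and pericyte and smooth muscle markers to between 2210 and 2760 CPM in DN and between 2760 and 3240 CPM in GFP (0.817). Proliferation genes summed to between 1850 and 2120 CPM in DN and between 2100 and 2360 CPM in GFP (0.878). Neuronal genes were thus present in every library, beside glial, fibroblast and contractile cell markers whose sums were lower in DN on average. Macrophage markers were low (40.5 to 63.2 CPM in DN, 54.8 to 91 CPM in GFP) and T cell, B cell and neutrophil markers close to nothing (0.447 to 0.874 CPM in DN, 0.477 to 0.808 CPM in GFP), with Cd3e, Cd3g, Ms4a1, S100a9, Ly6g and Mpo at 0 in all 6 libraries. In these bulk samples, fewer cells of a type and less RNA per cell cannot be told apart.

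**Figure D1:**
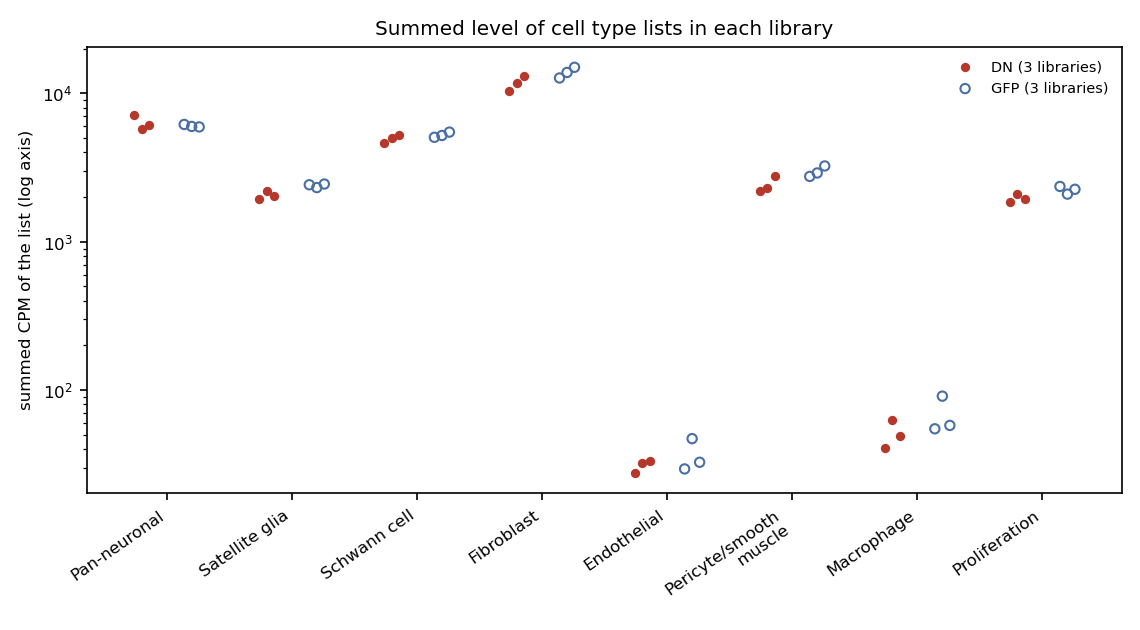
Summed CPM (log axis) of each list of cell type markers, 1 point per library, with the 3 DN libraries left of the 3 GFP libraries and replicates 1 to 3 left to right. Pan-neuronal sums overlap, and satellite glia sums are 1940 to 2210 CPM in DN against 2320 to 2450 CPM in GFP.

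Of the nonpeptidergic nociceptor genes 21 of 28 were higher in DN and 1 lower, and of the genes known to be induced by nerve injury 34 of 56 were lower and 9 higher. Of the 17318 genes 3617 passed at an adjusted p under 0.05 (20.9%) by edgeR's quasi-likelihood test with the culture as a block, 1887 higher in DN (10.9%) and 1730 lower (9.99%). The genes called higher moved further, with a median log2 fold change of 0.49 against -0.30 for those called lower, and 404 rose but 163 fell by at least 2-fold. At 4-fold the counts were 96 and 64. The median log2 fold change of all genes was -0.02. Of the called genes, 3561 had 1 direction in all 3 pairs. All 3 DN libraries lay above all 3 GFP libraries in 2802 of the tested genes (16.2%) and below them in 2443 (14.1%). The count of calls was 2148 without replicate 1, 4319 without replicate 2 and 1886 without replicate 3, and 2169 without the replicate block, where 1365 were higher and 804 lower.

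**Figure D2:**
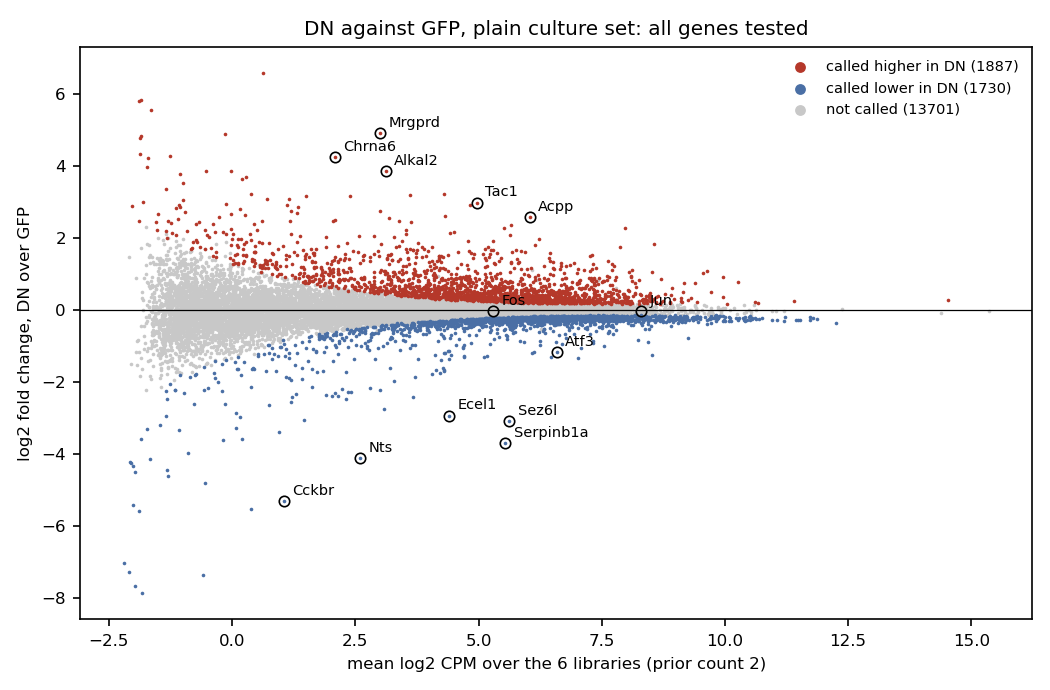
Each point is a gene, placed by its mean log2 CPM over the 6 libraries and its log2 fold change of DN over GFP, coloured by call. The 96 genes called higher and 64 called lower by at least 4-fold stand far from the bulk of genes, while Fos and Jun lie near 0.

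The 16 largest rises among genes averaging 2 log2 CPM or more were led by the receptor that defines a class of nociceptors. Mrgprd, the Mas-related G protein-coupled receptor of nonpeptidergic nociceptors, stood at 67.4, 34.2 and 37.6 CPM in DN replicates 1 to 3, against 1.27, 2.36 and 0.847 CPM in GFP. The groups are far apart, with untransduced cultures between 0.954 and 1.82 CPM. The log2 fold change was 4.91 (SE 0.43, edgeR adjusted p = 0.00657), and it was 5.62 without replicate 2, whose GFP library was the highest of its group. Chrna6, a nicotinic acetylcholine receptor subunit, had 21.8, 16.8 and 16.3 CPM in DN against 0.923, 1.33 and 0.616 CPM in GFP (log2 fold change 4.25, SE 0.20, edgeR adjusted p = 2.05e-12). Alkal2, a ligand of the ALK and LTK receptor tyrosine kinases, had 44.9, 25.1 and 29.5 CPM in DN against 2.51, 1.89 and 2.39 CPM in GFP (3.85, SE 0.14, edgeR adjusted p = 3.74e-14). Its gene overlaps Acp1 on the other strand, and without strand information reads of the pair cannot be told apart. In both genes DN replicate 1 was the highest library and no DN library came near a GFP library.

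Tac1, the substance P precursor, had 88.0, 87.9 and 87.5 CPM in DN against 12.1, 8.41 and 13.6 CPM in GFP (log2 fold change 2.97, SE 0.11, edgeR adjusted p = 8.21e-13). The 3 DN libraries are nearly equal. Acpp, the prostatic acid phosphatase used to stain nonpeptidergic nociceptors, had 205, 134 and 150 CPM in DN against 32.1, 28.8 and 21.0 CPM in GFP (log2 fold change 2.57). A pair of genes of diacylglycerol signalling were among the rises: Rasgrp1, a Ras exchange factor that diacylglycerol activates, had 102, 66.4 and 71.2 CPM in DN against 12.9, 11.7 and 7.16 CPM in GFP, and Dgkg, a kinase that consumes diacylglycerol, had 55.0, 42.5 and 49.8 CPM in DN against 7.32, 8.57 and 8.20 CPM in GFP. Their log2 fold changes were 2.92 and 2.60.

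On GRCm38, in the GENCODE M21 annotation, Alkal2 (ENSMUSG00000054204) lies on chromosome 12 from 30884322 to 30893854, Tac1 (ENSMUSG00000061762) on chromosome 6 from 7554879 to 7565834, Acpp (ENSMUSG00000032561) on chromosome 9 from 104288251 to 104337748 and Rasgrp1 (ENSMUSG00000027347) on chromosome 2 from 117279993 to 117343001.

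The other rises of the 16 were the LIM-domain cofactor Ldb2 (log2 fold change 3.21), the cortexin Ctxn3 (3.19), the homeodomain factor Hoxd1 (3.17), the calcineurin-like calcium sensor Chp2 (2.74), the lysophosphatidic acid receptor Lpar3 (2.55), the G protein gamma subunit Gng8 (2.48), the cyclic nucleotide phosphodiesterase Pde11a (2.46), the membrane progestin receptor Paqr5 (2.46) and the orphan receptor Gpr149 (2.44). Every DN library was above every GFP library in each, as in 16.2% of all tested genes, but these genes were chosen for their rise. Their edgeR adjusted p-values ran between 1.43e-12 for Ctxn3 and 2.46e-08 for Paqr5. Ldb2 and Dgkg overlap short noncoding or predicted genes on either strand.

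**Figure D3:**
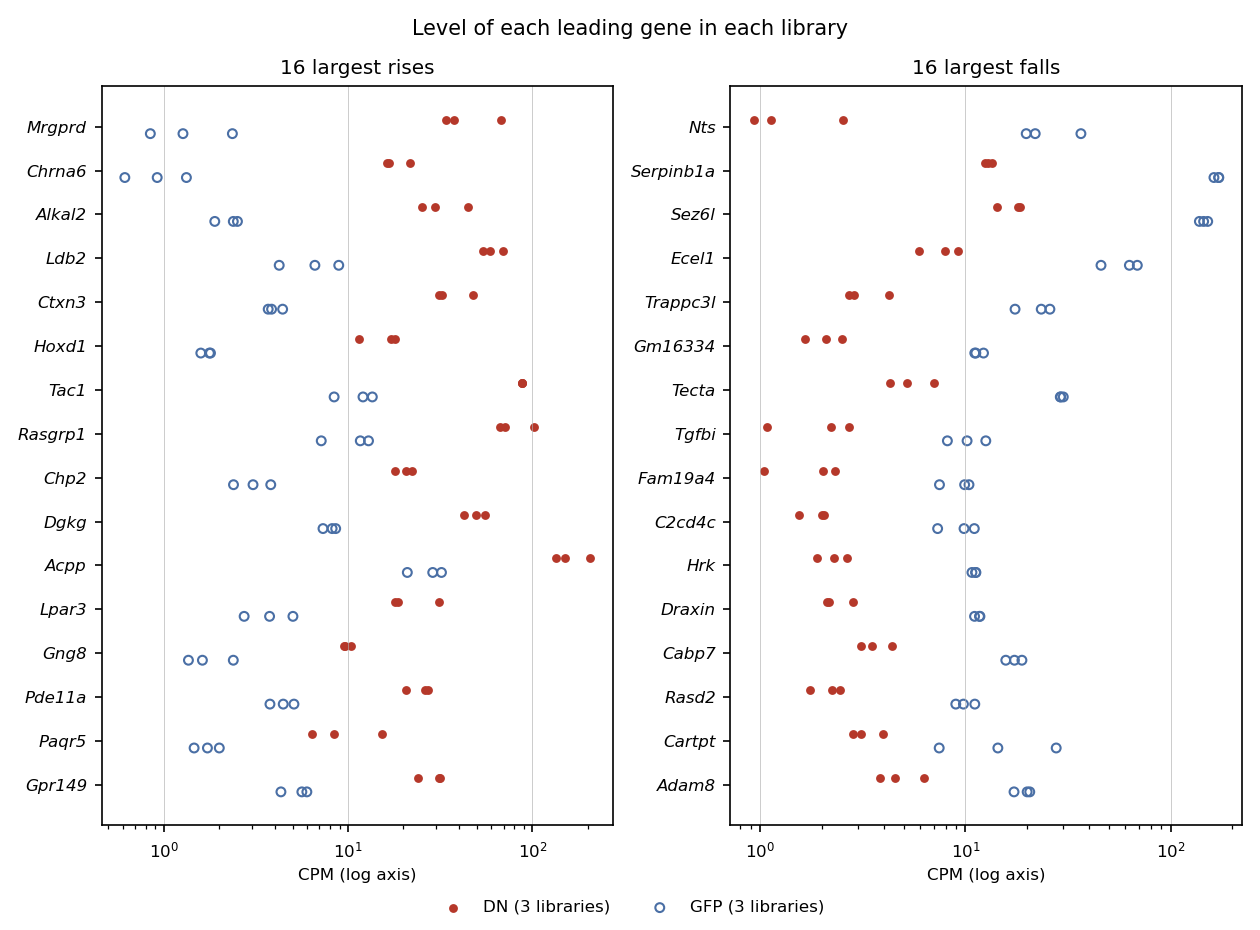
CPM (log axis) in each library of the 16 largest rises (left) and 16 largest falls (right) among genes averaging 2 log2 CPM or more. DN libraries are filled points above GFP as open points in each row. DN and GFP libraries do not overlap in any of the 32 genes, which were chosen for the size of their change.

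Among genes averaging 2 log2 CPM or more, the 16 largest falls were led by a neuropeptide and a protease inhibitor. Genes under that average could fall further, such as Cckbr (log2 fold change -5.33), which is given with the injury-induced genes. Nts, whose window is printed above, had 2.52, 0.928 and 1.12 CPM in DN against 36.5, 19.8 and 21.9 CPM in GFP, and 13.5 to 32.8 CPM in untransduced cultures (log2 fold change -4.13, SE 0.16, edgeR adjusted p = 9.82e-14). In DN and GFP alike replicate 1 was the highest library. Its gene (ENSMUSG00000019890) spans 102481756 to 102490486 on chromosome 10 of GRCm38. Serpinb1a, an inhibitor of serine proteases, had 12.9, 12.4 and 13.4 CPM in DN against 172, 172 and 163 CPM in GFP, and the smallest adjusted p of the comparison (-3.71, SE 0.07, edgeR adjusted p = 1.63e-18). Sez6l, a neuronal membrane protein of the Sez6 family, had 18.03, 14.2 and 18.4 CPM in DN against 145, 152 and 138 CPM in GFP (-3.11). The libraries of each group sit close together in both genes.

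Ecel1, a membrane peptidase known to be induced in damaged neurons, had 9.17, 7.91 and 5.95 CPM in DN against 68.8, 62.9 and 45.8 CPM in GFP (log2 fold change -2.95). Hrk, a BH3-only protein that promotes neuronal death, had 2.63, 1.89 and 2.29 CPM in DN against 10.8, 11.2 and 11.2 CPM in GFP (-2.29). Untransduced cultures had 8.46, 6.96 and 7.18 CPM of Hrk, below every GFP library and above every DN library. Cartpt, the CART neuropeptide precursor, had 2.82, 3.09 and 3.96 CPM in DN against 14.4, 7.44 and 27.7 CPM in GFP (-2.17). The GFP libraries of Cartpt spread widely, and its edgeR adjusted p of 9.89e-06 was 0.0509 without the replicate block.

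The remaining falls were the transport complex gene Trappc3l (log2 fold change -2.77), Gm16334 (-2.48), the tectorin Tecta (-2.43), the matrix protein Tgfbi (-2.39), the chemokine-like Fam19a4 (-2.39), C2cd4c (-2.33), the axon guidance protein Draxin (-2.28), the calcium-binding Cabp7 (-2.24), the small GTPase Rasd2 (-2.22) and the metalloprotease Adam8 (-1.99). Their edgeR adjusted p-values ran between 7.11e-12 for Trappc3l and 5.94e-08 for Tgfbi. Gm16334 overlaps Kcnab2 on the same strand, Draxin overlaps Mad2l2, Cabp7 overlaps Zmat5, Adam8 overlaps Gm16201 and Trappc3l overlaps Calhm4 and Calhm5, so their counts may be shared.

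In the AP-1 family, levels of Fos and Jun overlapped between the conditions while Atf3 fell. Of 20 family genes 18 were tested, and the median log2 fold change was -0.06. Called higher was 1 and lower 5 (5.56% and 27.8%, against 10.9% and 9.99% over all genes). The number lower was 2 without replicate 1 and 2 without replicate 3. Fos, the partner from which A-Fos was built, had 36.2, 37.2 and 42.0 CPM in DN against 39.8, 39.6 and 39.9 CPM in GFP (log2 fold change -0.05, SE 0.08, edgeR adjusted p = 0.715), and whether A-Fos transcripts were counted there was not tested. Jun had 351, 304 and 281 CPM in DN against 344, 329 and 292 CPM in GFP (-0.05, edgeR adjusted p = 0.621). In both genes the groups overlap.

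Atf3, the AP-1 partner that marks axotomised neurons, was the exception, with 72.8, 63.7 and 56.7 CPM in DN against 172, 142 and 125 CPM in GFP (log2 fold change -1.18, SE 0.06, edgeR adjusted p = 7.51e-12). Every DN library was below every GFP library. Fosl1 fell less, to 26.7, 28.8 and 26.2 CPM in DN, against 35.9, 34.2 and 36.4 CPM in GFP (-0.38, edgeR adjusted p = 0.00302, and 0.0782 without replicate 3). Fosl1 overlaps Ccdc85b, Junb overlaps Prdx2, Mafg overlaps Sirt7 and Mafk overlaps Tmem184a, so their counts may be shared. The calls of Jdp2 (-0.26), Maff (-0.21) and Atf2 (0.18) were each lost without replicate 1 and without replicate 3. They were also lost without the replicate block and under DESeq2. That of Atf2 was lost as well without replicate 2, with upper-quartile factors and with no low-count filter. Fosb (-0.25), Fosl2 (-0.04), Junb (-0.01), Jund (-0.07), Atf7 (0.01), Batf3 (-0.48), Maf (-0.04), Mafa (0.08), Mafg (0.08) and Mafk (-0.14) were not called.

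Of 28 tested genes taken from textbook accounts of AP-1 targets, 18 were called lower and 1 higher, with a median log2 fold change of -0.28, against 9.99% called lower over all genes. The count called lower was 11 without replicate 1 and 8 without replicate 3. Most of these falls were small. Plaur, the receptor of urokinase plasminogen activator, had 14.1, 14.99 and 10.4 CPM in DN against 34.3, 29.6 and 26.5 CPM in GFP (-1.20, SE 0.11, edgeR adjusted p = 2.61e-08). Sprr1a had 0.0387, 0.138 and 0.125 CPM in DN against 1.97, 1.16 and 1.96 CPM in GFP (-3.98, SE 0.61), where the DN values are near the limit of 0.103 to 0.125 CPM that 3 counts give. Itga5, an integrin subunit, had 82.6, 84.3 and 83.1 CPM in DN against 98.7, 111 and 119 CPM in GFP (-0.39). The only rise was Vegfa, the vascular growth factor (0.35). Of the members with a window, the element was found for 5 of the 14 called lower and for 2 of the 6 not called. Fibroblast and glial marker sums moved in the same direction by similar factors, and their part in the small falls was not tested.

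Immediate early genes, the first transcripts that stimulated cells make, were called lower in 14 of 28 and higher in 0 of 28, with a median of -0.25, against 9.99% called lower over all genes. Fibroblast, Schwann cell, satellite glia and proliferation genes had medians of -0.21, -0.24, -0.26 and -0.17, and their part in these falls was not tested. The number called lower was 7 without replicate 1 and 7 without replicate 3. Dusp1, a phosphatase that shuts off MAP kinases, fell furthest, to 63.5, 54.6 and 49.9 CPM in DN, against 108, 108 and 92.3 CPM in GFP (-0.88, edgeR adjusted p = 2.08e-09), and its gene overlaps Ergic1. Klf6 (-0.43), Csrnp1 (-0.42) and Ccn1 (-0.33) followed, while Egr1 (0.05), Arc (-0.09) and Npas4 (-0.45) were not called. Of 18 dual-specificity phosphatases 7 fell (38.9%) and 1 rose (5.56%), with 3 and 4 falls without replicates 1 and 3. The rise was Dusp26, a phosphatase of neurons, with 80.9, 54.0 and 61.0 CPM in DN against 25.9, 21.5 and 19.3 CPM in GFP (1.54). In the DLK-JNK pathway, the kinase cascade that acts on Jun, 4 of 19 were called in each direction. This is 21.1% each, against 10.9% higher and 9.99% lower over all genes. Among them were the kinases Mapk10 (0.54) and Map3k1 (0.55) higher and the scaffold Mapk8ip1 (-0.48) lower.

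Genes known to be induced by nerve injury fell in 34 of 56 and rose in 9 of 56 (60.7% and 16.1%, against 9.99% called lower and 10.9% called higher over all genes), with a median log2 fold change of -0.38, and the count called lower was 30 without replicate 1 and 29 without replicate 3. Apart from Nts, Serpinb1a, Sez6l, Ecel1 and Atf3, the members named here and in the other lists beyond the first 4 by p were chosen after their values were seen. Cckbr, a cholecystokinin receptor that injured ganglia gain, had 0.310, 0.309 and 0.250 CPM in DN against 11.3, 12.3 and 11.9 CPM in GFP, and 9.33 to 11.9 CPM in untransduced cultures (-5.33, SE 0.25, edgeR adjusted p = 1.65e-12). Ucn, the neuropeptide urocortin, had counts in DN replicate 2 only (0.0688 CPM), against 5.54, 5.05 and 4.08 CPM in GFP. A count of 0 in DN replicates 1 and 3 allows up to 0.116 and 0.125 CPM, so Ucn was near the detection limit in DN. Cckbr was low in DN but above the 0.103 to 0.125 CPM that 3 counts give.

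Gap43, a growth cone protein, had 44.6, 44.4 and 43.0 CPM in DN against 91.8, 76.8 and 80.0 CPM in GFP (log2 fold change -0.91), and Sox11, a transcription factor of axon regrowth, had 59.5, 40.9 and 39.6 CPM in DN against 111, 108 and 95.7 CPM in GFP (-1.19). The small heat shock protein Hspb1 (-1.40), the stathmin Stmn4 (-1.68), the receptor Prokr2 (-1.63) and the adhesion protein Flrt3 (-1.19) also fell. The 9 members that rose included the calcium channel subunit Cacna2d1 (0.82), Bdnf (0.73), Rtn4rl2 (1.41) and Stat3 (0.41). Flrt3 overlaps Macrod2 and Stat3 overlaps Stat5a. Galanin (Gal, 0.23), the cytokine Il6 (-0.40) and Socs3 (-0.04) were not called.

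**Figure D4:**
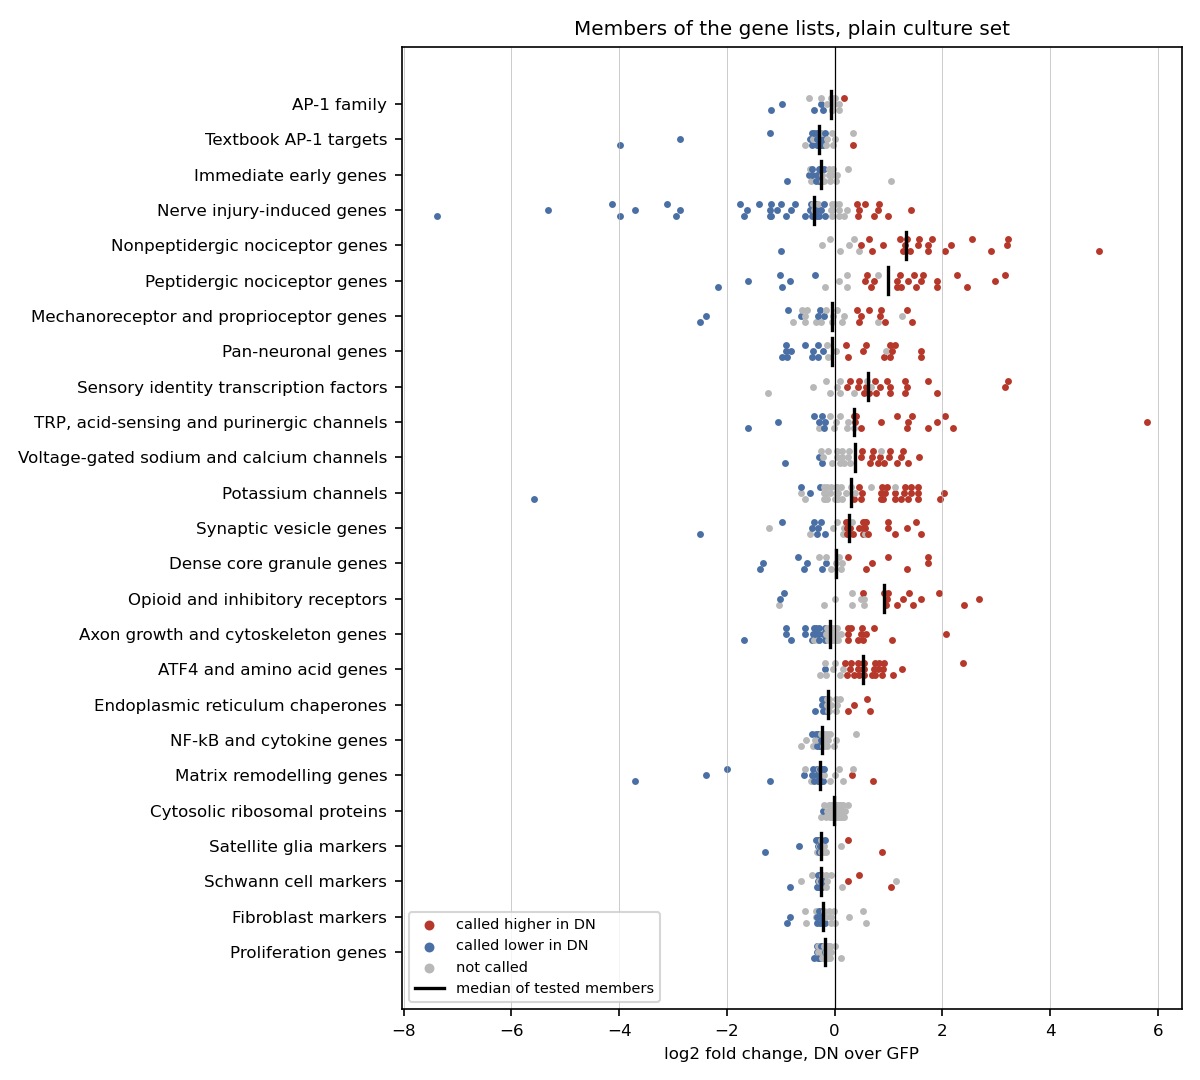
Log2 fold change of DN over GFP for each tested member (points, coloured by call) and the median (bar) of 25 gene lists. Nonpeptidergic (median 1.32) and peptidergic (median 0.99) nociceptor genes lie to the right, injury-induced genes (median -0.38) have a long tail to the left, and ribosomal protein genes stay near 0.

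Nonpeptidergic nociceptor genes, expressed in the neurons that bind isolectin and express Ret in the adult, rose in 21 of 28 and fell in 1, with a median of 1.32, against 10.9% called higher over all genes. P2rx3, the ATP-gated channel of these cells, had 362, 285 and 303 CPM in DN against 133, 128 and 114 CPM in GFP (log2 fold change 1.34, SE 0.06, edgeR adjusted p = 1.65e-12). Its gene overlaps Ssrp1 on the other strand, and their reads cannot be told apart. Cd55, a complement regulator, had 167, 145 and 159 CPM in DN against 69.0, 66.0 and 66.9 CPM in GFP (1.22). The channels Trpa1 (2.05) and Scn11a (1.57) and the receptors Cysltr2 (2.91), Lpar5 (2.16) and Agtr1a (1.81) rose with them. Ret, the receptor of the GDNF family, went the other way, with 170, 117 and 118 CPM in DN against 284, 261 and 254 CPM in GFP (-1.0, edgeR adjusted p = 2.16e-09). Runx1, the transcription factor that specifies this lineage, was not called (0.10).

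Peptidergic nociceptor genes rose in 19 of 30 and fell in 6, with a median of 0.99. These are 63.3% and 20%, against 10.9% called higher and 9.99% called lower over all genes. Ptgir, the prostacyclin receptor, had 106, 99.4 and 95.7 CPM in DN against 22.7, 22.03 and 17.6 CPM in GFP (log2 fold change 2.27, SE 0.08, edgeR adjusted p = 1.14e-14). Calca, the gene of the peptide CGRP, had 274, 261 and 267 CPM in DN against 86.3, 83.5 and 113 CPM in GFP (1.52). Trpv1, the capsaicin receptor (1.16), Trpm8, the cold receptor (1.90), and Oprm1, the mu opioid receptor (1.61), rose too. Lower in DN were the proton-gated channel Asic3 (-1.62), the artemin receptor Gfra3 (-0.98), Adra2a (-1.01), Dcn (-0.82), S100a16 (-0.36) and Cartpt, of which Dcn is also made by fibroblasts.

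Mechanoreceptor and proprioceptor genes were divided, with 9 higher and 7 lower of 31 (29% and 22.6%, against 10.9% and 9.99% over all genes) and a median of -0.04. The mechanosensitive channel Piezo2 had 234, 206 and 217 CPM in DN against 109, 121 and 132 CPM in GFP (log2 fold change 0.86), and Asic2 rose by 1.44, whereas the adhesion receptor Heg1 (-0.87) and, of the markers of low-threshold C fibres, the vesicular glutamate transporter Slc17a8 (-2.49) and Fam19a4 fell. The neurotrophin receptor Ntrk2 fell by 0.21 and Ntrk3 (0.14) was not called. The number lower was 6 without replicate 1 and 4 without replicate 3. Pan-neuronal genes were likewise divided, 11 higher and 11 lower of 26 (42.3% each). Syt1, the calcium sensor of vesicle release (1.6), Nsg2 (1.61), Elavl2 (1.12) and the sensory actin regulator Avil (1.03), whose gene overlaps Tsfm, rose, and Slc17a6 (-0.98), Stmn2 (-0.91), Gap43, Thy1 (-0.88) and Tubb3 (-0.80) fell.

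Transcription factors of sensory identity rose in 20 of 30 (66.7%, against 10.9% called higher over all genes) and fell in 0. Their median was 0.62, and 17 were higher without replicate 1 and without replicate 3. Prdm12, a regulator needed to form nociceptors, had 86.3, 74.0 and 68.6 CPM in DN against 18.9, 22.2 and 20.2 CPM in GFP (log2 fold change 1.90, SE 0.09, edgeR adjusted p = 1.77e-12). Ebf1 had 152, 124 and 144 CPM in DN against 55.1, 54.2 and 55.4 CPM in GFP (1.35). Both stand clear of GFP in every library. The pan-sensory homeodomain factors Isl1 (1.03) and Pou4f1 (0.75) and the zinc finger proteins Bcl11a (1.74) and Bcl11b (1.31) rose, while Runx3 (-0.16), Cux2 (0.05) and Neurod1 (0.11) were not called. Of 30 tested Hox genes only Hoxd1 and Hoxa7 (0.39) were called, both higher (6.67%), and the call of Hoxa7 was lost when any replicate was left out.

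Ion channel lists leaned towards higher levels in DN. Among TRP, acid-sensing and purinergic channels 14 of 29 rose and 7 fell (median log2 fold change 0.35), among sodium, calcium and pacemaker channels 15 of 32 rose and 3 fell (0.38), and among potassium channels 23 of 53 rose and 4 fell (0.30). In that order 48.3, 46.9 and 43.4% rose, against 10.9% over all genes, and 24.1, 9.38 and 7.55% fell, against 9.99%. The falls of the TRP, acid-sensing and purinergic list numbered 3 without replicate 1 and 2 without replicate 3. Scn10a, the tetrodotoxin-resistant sodium channel of nociceptors, had 367, 298 and 323 CPM in DN against 144, 151 and 128 CPM in GFP (1.23, edgeR adjusted p = 3.49e-11). Scn9a, the sodium channel whose loss abolishes pain in humans, had 294, 238 and 282 CPM in DN against 137, 144 and 147 CPM in GFP (0.92). The beta subunit Scn2b rose by 1.27 and Scn4b fell by 0.92. Among potassium channels Kcnb2 had 164, 115 and 152 CPM in DN against 56.4, 47.8 and 54.5 CPM in GFP (1.43), and the A-type channel Kcnd1 (1.31) rose along with the channel-interacting proteins Kcnip2 (2.04), Kcnip3 (1.41) and Kcnip4 (1.56). Among the 4 that fell were Kcnq3 (-0.28) and Kcna1 (-0.62). Log2 fold changes of all tested members, called or not, ran between -5.59 and 2.04 in the potassium list. In the TRP, acid-sensing and purinergic list they ran between -1.62 and 5.79, and in the sodium, calcium and pacemaker list between -0.92 and 1.57.

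Receptors that dampen neurons rose in 13 of 23 and fell in 2 (56.5% and 8.7%, against 10.9% and 9.99% over all genes). Their median log2 fold change was 0.92, and 9 were higher without replicate 1. Gabbr2, a subunit of the GABA-B receptor, had 152, 109 and 114 CPM in DN against 70.5, 56.6 and 60.8 CPM in GFP (0.99, edgeR adjusted p = 2.39e-10). Oprm1, whose gene overlaps Ipcef1, had 17.3, 20.5 and 23.5 CPM in DN against 6.94, 7.38 and 5.62 CPM in GFP. Htr1a (2.68), Galr1 (2.41), Oprl1 (1.93) and Npy1r (1.46) also rose, and Htr1d (-0.93) and Adra2a fell. The level of Npy1r also differed between the controls: it had 20.7, 21.7 and 29.8 CPM in DN, 10.2, 6.78 and 9.32 CPM in GFP and 3.19, 3.42 and 9.00 CPM in untransduced cultures, where replicates 1 and 2 lie below all GFP libraries.

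The secretory and signalling genes of neurons were mixed. Over all genes 10.9% were called higher and 9.99% lower. Synaptic vesicle genes rose in 21 of 37 (56.8%) and fell in 8 (21.6%), and dense core granule genes rose in 7 of 21 and fell in 7 (33.3% each). Without replicate 1 the counts of these 2 lists were 14, 6, 6 and 5, and without replicate 3 they were 15, 3, 6 and 4. Scg3, a granin-binding protein, had 534, 360 and 402 CPM in DN against 135, 123 and 126 CPM in GFP (log2 fold change 1.74, edgeR adjusted p = 9.55e-13), and Rab27b, a granule GTPase, rose by 1.73. Vgf, an activity-regulated neuropeptide precursor, had 113, 69.8 and 68.6 CPM in DN against 253, 196 and 174 CPM in GFP (-1.33), and the prohormone convertase Pcsk1 had 12.9, 13.9 and 12.4 CPM in DN against 32.6, 29.2 and 41.6 CPM in GFP (-1.38). Diacylglycerol, cyclic nucleotide and Ras signalling genes rose in 18 of 48 (37.5%) and fell in 7 (14.6%). G protein and RGS genes rose in 16 of 37 (43.2%) and fell in 7 (18.9%), with Gnal (1.13), which overlaps Chmp1b and Mppe1, and Gnao1 (0.92) higher. Among receptor tyrosine kinases and trophic ligands 10 of 31 rose (32.3%) and 9 fell (29%). The falls of these 3 lists numbered 4, 6 and 6 without replicate 1 and 3, 2 and 4 without replicate 3. Fgf13 (1.48) and the neurotrophin receptor Ngfr (1.05) rose beside Alkal2.

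Axon growth and cytoskeleton genes fell in 17 of 47 and rose in 12 (36.2% and 25.5%, against 9.99% and 10.9% over all genes). The rises numbered 8 without replicate 3. Coro1a, an actin-binding coronin, had 126, 97.7 and 86.3 CPM in DN against 25.5, 27.9 and 20.5 CPM in GFP (log2 fold change 2.06, edgeR adjusted p = 6.39e-13), and its gene overlaps Bola2 on the other strand. Prph, the intermediate filament peripherin, had 1517, 1022 and 1007 CPM in DN against 621, 554 and 494 CPM in GFP (1.07). Stmn2, a microtubule regulator of growing axons, had 300, 232 and 236 CPM in DN against 506, 460 and 467 CPM in GFP (-0.91). Axon guidance genes fell in 16 of 51 (31.4%) and rose in 10 (19.6%), with Sema6a (-1.07) and Draxin lower and Plxnc1 (1.30) higher. Without replicate 1 the guidance list had 12 falls and 6 rises, and without replicate 3 it had 9 and 6.

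Genes of the amino acid response that ATF4 controls rose in 25 of 33 and fell in 1 (75.8% and 3.03%, against 10.9% and 9.99% over all genes). Their median log2 fold change was 0.52, and the rises numbered 20 without replicate 1 and 19 without replicate 3. Slc7a5, a transporter of large neutral amino acids, had 272, 240 and 234 CPM in DN against 109, 107 and 95.7 CPM in GFP (1.26, SE 0.06, edgeR adjusted p = 1.64e-12). Atf5 had 389, 293 and 253 CPM in DN against 162, 153 and 122 CPM in GFP (1.09), and Asns, asparagine synthetase, had 239, 203 and 190 CPM in DN against 137, 134 and 119 CPM in GFP (0.69). Atf5 overlaps Nup62 and Il4i1 on the other strand and Ddit3 overlaps Mars, so their counts may be shared. The stress-induced Ddit3 (0.73), Trib3 (0.75) and Chac1 (0.83) rose and Atf4 itself rose by 0.28, while Ppp1r15a (-0.15), Gdf15 (-0.17) and Slc7a11 (-0.27) were not called. Endoplasmic reticulum chaperones were mixed: 4 of 22 rose (18.2%) and 7 fell (31.8%), with a median of -0.11. The members with the smallest p, Ero1l (0.66), Crebrf (0.60) and Herpud1 (0.37), rose. Next by p came Pdia3 (-0.23), which fell and whose gene overlaps Catsper2, and Hspa5 was not called (-0.11). Without replicate 3 the list had 3 rises, and no fall in it remained.

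Matrix remodelling genes fell in 26 of 37 and rose in 2 (70.3% and 5.41%, against 9.99% and 10.9% over all genes). Their median log2 fold change was -0.28, and 16 were lower without replicate 3. Beside Serpinb1a, Tgfbi, Adam8 and Plaur, the falls ran between -0.57 (Mmp19, which overlaps Tmem198b) and -0.20 (Mmp17), among them Mmp14 (-0.31), Timp2 (-0.24) and Plat (-0.29). Genes of NF-kB and cytokine signalling fell in 9 of 27 (33.3%) and rose in 0, and the number lower was 3 without replicate 1, 18 without replicate 2 and 3 without replicate 3. Lif had 318, 363 and 344 CPM in DN against 398, 453 and 438 CPM in GFP (-0.33, edgeR adjusted p = 9.34e-05), and Csf1, the macrophage growth factor, had 622, 655 and 575 CPM in DN against 836, 750 and 781 CPM in GFP (-0.35). Falls of this size were also seen in markers of the other cells of the culture: 11 of 25 fibroblast markers (median -0.21), 13 of 26 Schwann cell markers (-0.24), 10 of 22 satellite glia markers (-0.26) and 9 of 37 proliferation genes (-0.17) were lower, and 0, 3, 2 and 0 of them higher. The shares lower were 44, 50, 45.5 and 24.3%. Without replicate 1 the numbers lower were 8, 7, 6 and 0, without replicate 2 they were 12, 13, 14 and 23, and without replicate 3 they were 2, 7, 4 and 1. The part of these cells in the small falls of matrix and cytokine genes was not tested.

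A few glial and stromal names moved further than their lists, in either direction. Sparcl1 had 16.98, 16.1 and 16.9 CPM in DN against 44.6, 34.7 and 44.7 CPM in GFP (log2 fold change -1.30, edgeR adjusted p = 1.37e-09), Glul, glutamine synthetase, had 99.7, 100.3 and 90.5 CPM in DN against 155, 149 and 156 CPM in GFP (-0.67), and S100b, whose gene overlaps Dip2a, fell by 0.83. The transcription factor Sox10, present in both glial types, had 222, 258 and 247 CPM in DN against 296, 296 and 303 CPM in GFP (-0.30). Of the Schwann cell list, Ngfr, which had its smallest p, rose by 1.05 and Cadm1 rose by 0.45. Thy1, counted in the fibroblast list as well as the pan-neuronal list, fell by 0.88.

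Few genes were called in 2 of the housekeeping lists. Of 42 ribosomal protein genes 0 rose and 1 fell (2.38%), Rps24 (-0.22). Of 38 nuclear genes of oxidative phosphorylation 2 rose and 1 fell (5.26% and 2.63%). Over all genes 10.9% were called higher and 9.99% lower. Cholesterol synthesis genes rose in 5 of 27 (18.5%). Glycolysis genes rose in 10 of 24 (41.7%) and fell in 2 (8.33%), led by the glucose transporter Slc2a3 (1.32). Interferon response genes rose in 7 of 34 (20.6%), among them Stat2 (0.57), and fell in 3 (8.82%), a share close to that of all genes. Targets of p53 fell in 12 of 30 (40%) and rose in 3 (10%), with 4 falls without replicate 1 and 4 without replicate 3. The rises of the cholesterol, glycolysis and interferon lists numbered 2, 6 and 5 without replicate 1 and 3, 5 and 4 without replicate 3. Mitochondrially encoded genes fell in 5 of 13 (38.5%, median -0.34), and all 13 had values below 0. The 4 with the smallest p, such as mt-Nd1 (-0.36), each lost their call without the replicate block.

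Whether the DN effect in these cultures differed from that in the other culture sets was tested in a fit of the 20 DN and GFP libraries, with 3 pairs grown 7 days in vitro (7DIV) and 4 pairs whose titles carry a date (dated). The effect differed from that of the 7DIV set in 400 of 17394 genes (2.3%) and from that of the dated set in 227 (1.31%). Without the replicate block these counts were 8 and 7, without replicate 1 they were 83 and 59, without replicate 3 they were 132 and 83, without replicate 4 of the 7DIV set 224, without replicate 5 of it 144, and without replicate 8 of the dated set 147. Of the genes called higher in the plain set, 89.3% were above 0 in 7DIV and 94% in dated, against 52% and 51.2% of all genes. Of those called lower, 71.7% were below 0 in 7DIV and 82% in dated, against 48% and 48.7% of all genes.

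All 32 leading genes had the same sign in both other sets. The difference from 7DIV was called for 22 of them and that from dated for 15, and all 32 were larger in the plain set, which is where they had been chosen. Rasgrp1 had a log2 fold change of 2.93 in plain, 1.27 in 7DIV and 1.07 in dated cultures in the joint fit, and Acpp had 2.58, 1.19 and 1.01. Mrgprd had 4.92, 2.91 and 3.67, and its difference from the dated set did not pass (1.25, SE 0.37, edgeR adjusted p = 0.175). Clu, the secreted chaperone clusterin, had -1.31 in plain, -0.01 in 7DIV and -0.52 in dated cultures. Atf3 had -1.17, -0.94 and -0.86, and neither difference was called (edgeR adjusted p = 0.688 and 0.696).

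**Figure D5:**
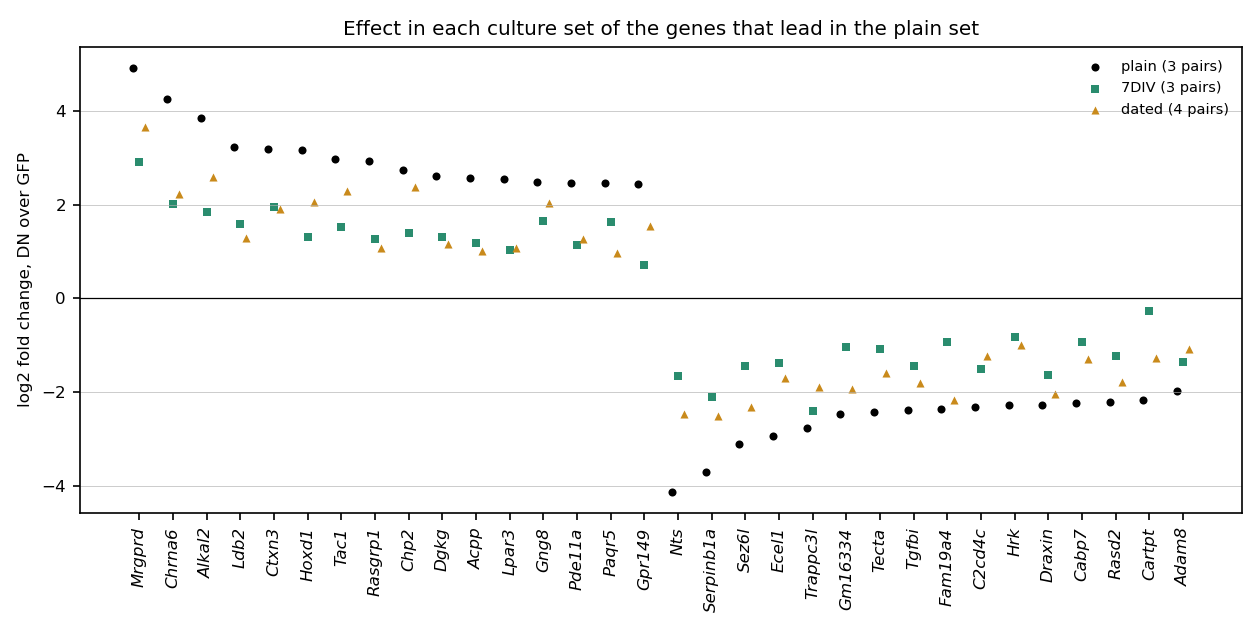
Log2 fold change of DN over GFP in the plain, 7DIV and dated sets, from the joint fit, for the 32 genes that lead in the plain set. Every gene keeps its sign, and each plain value is farther from 0 than both others, for genes that were picked by their plain values.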

How the data were processed

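The authors deposited raw read counts per Ensembl gene for each library. Bcl2fastq 2.17, STAR and HTSeq were the tools and GRCm38/mm10 the build, per the submitters' processing notes. The sources used here give no settings, strandedness or annotation release. Symbols came from GENCODE M21 for 48435 of 48795 identifiers.

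Counts of the 6 libraries were analysed with edgeR 4.0.16 in R 4.3.3: filterByExpr by condition, TMM factors and a robust quasi-likelihood fit with replicate as a block (2 residual degrees of freedom), tested two-sided and adjusted by Benjamini-Hochberg over all genes at 0.05. The fit was tested on simulated data. With 3 pairs an exact sign-flip test of a single value cannot go below 0.25, so p-values rest on the spread shared across genes. SE is the log2 fold change divided by the root of its F statistic. Log2 CPM carried a prior count of 2, and a count of 0 was limited to 3 counts, which covers counting error only. The pairing comes from the series' design: each mouse's culture was divided between conditions. In the counts, deviations of same-numbered libraries correlated at 0.1702, 0.0351 and 0.1771 for replicates 1 to 3, against -0.1996 to 0.0346 for other pairs. Replicate 2 was thus not set apart from other pairs, and the counts do not decide its pairing.

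Named genes were the 16 largest rises and falls (called, averaging 2 log2 CPM or more, 1 direction in 3 pairs), all AP-1 family genes, up to 4 called members per list by p and 6 genes per difference between culture sets. Some genes that these rules name are not reported here. Other genes were named once their values had been seen. The 48 lists, of which 1 had no member tested, overlap, and they, the comparison and the rules were chosen with earlier results of these data known. Alternatives were RLE and upper-quartile factors, no filter, a filter of 1 CPM in 3 libraries, DESeq2 1.42.0, no robust estimation, no replicate block and leaving out each replicate. The repeat table was not used here.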

Additional observations from a re-analysis of the deposited data

Results flagged for a closer look

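The effect of DN against GFP differed between culture sets in 400 genes for plain minus 7DIV and in 227 for plain minus dated, by edgeR's test of the difference itself. Of the 400, 316 had the larger effect in the plain set and 177 had opposite signs in the plain and 7DIV sets, and of the 227, 216 had the larger effect in the plain set and 31 had opposite signs. For plain minus 7DIV, the genes of smallest p had log2 differences of 1.53 for Coro1a, -1.30 for Clu, 1.66 for Rasgrp1, 0.86 for Usp20, 1.39 for Acpp and 2.01 for Alkal2. For plain minus dated, they had differences of 1.86 for Rasgrp1, 1.57 for Acpp, 1.40 for Trarg1, 1.45 for Dgkg, 1.17 for Coro1a and 1.23 for Nptx2. In the plain set itself Trarg1, a membrane protein tied to glucose transporter traffic, had 651, 508 and 516 CPM in DN against 126, 118 and 102 CPM in GFP, and Nptx2, a secreted pentraxin of synapses, had 74.4, 54.6 and 47.8 CPM in DN against 20.9, 21.9 and 16.7 CPM in GFP. Usp20, a deubiquitinase, had 154, 134 and 124 CPM in DN against 66.6, 63.3 and 56.7 CPM in GFP, and Clu had 56.1, 49.1 and 65.4 CPM in DN against 153, 124 and 147 CPM in GFP. Culture set, days in vitro and preparation cannot be told apart in these differences. For Clu, Rasgrp1, Usp20, Acpp and Alkal2 against 7DIV, and Rasgrp1, Acpp, Coro1a and Nptx2 against dated, the difference did not pass without the replicate block.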

How the results depend on the processing

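RLE and upper-quartile factors, both filters, DESeq2 and the fit without robust estimation gave between 2613 (DESeq2) and 3776 called genes, against 3617, all within 1.5 times. The calls shared with the main result were 3600 under RLE factors, 3409 under upper-quartile factors and 2607 under DESeq2, and the share of calls that were higher was 52.17%, against 44.93% with upper-quartile scaling. In the fit without a replicate block 2169 genes were called, 1365 higher and 804 lower, and all but 2 of the 2169 were among the 3617, since 2167 were shared. Leaving out each replicate gave 1886 to 4319 calls, 1196 to 2118 higher and 690 to 2201 lower, on fewer libraries each. For plain minus 7DIV the calls without the replicate block were 8 (5 above and 3 below 0), against 400 (242 and 158), and 83 to 449 with each replicate left out (60 to 278 above and 23 to 171 below). For plain minus dated they were 7 (6 and 1), against 227 (190 and 37), and 59 to 262 (50 to 229 above and 7 to 33 below). Among 191 named genes with a test, 1805 of 1909 recomputed values kept direction and side of the threshold, 97 no longer passed and 7 changed sign: Junb (-0.1008 to 0.0363 over the fits that leave out a replicate), Atf7 (-0.0133 with upper-quartile factors and -0.0202 to 0.0361 with a replicate left out), Maf (-0.0925 to 0.04) and Mafa (-0.2541 to 0.6169), none of them called. For these changes the cause was not tested, beyond the fewer libraries in a fit that leaves some out. List counts moved by over 1.5 times in 161 of 940 cases and list medians by more than the pairs' spread in 34 of 470. Depth limits genes near 0.1 CPM, such as Sprr1a and Ucn in DN, where 3 counts are 0.103 to 0.125 CPM.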
